A study of Mus musculus with 20 samples.

Results

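Klf2, Klf4 and Klf5, the 3 Krüppel-like factor genes of the naive pluripotency network, were followed through 20 mouse RNA sequencing libraries of an experiment that raised Klf5 and an experiment that lowered it. They were matched by mouse symbol to the Ensembl identifiers of both tables of estimated counts and are 3 of the 30265 genes in each table. The rule that chose them uses no measured value, although it was set with earlier results of these data known. The embryonic stem cells (ESCs) were a C57BL/6J line grown with the cytokine LIF on irradiated mouse embryonic fibroblast feeders, with 2 libraries from cells overexpressing GFP and 2 from cells overexpressing Klf5. Single blastocysts at E4.5, cultured in KSOM with BSA and from a strain written C57BL/5J in the labels, had been injected with a scramble control siRNA (10 embryos) or a Klf5 siRNA (6 embryos), with 1 library for each embryo. All ESC libraries thus share feeders and LIF, and all embryos share injection and culture. The sources used here do not give the vector and promoter of the overexpression, the number of ESC clones, the siRNA sequence or the stage of injection. The labels do not call the ESC replicates separate cultures, and p-values there reflect the variation among these libraries alone, part or all of which could be technical. The question asked of the data was whether Klf2 and Klf4 moved against Klf5 when Klf5 was raised and when it was lowered.

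Krüppel-like factors are transcription factors that bind GC-rich and CACCC elements through 3 C2H2 zinc fingers at the carboxy end of the protein. In mouse ESCs, Klf2, Klf4 and Klf5 bind overlapping sets of sites and help to keep the naive state, and loss of any 1 of them is known to be partly covered by the others. Klf4 is induced by LIF through Stat3, Klf2 is held up by inhibition of the MEK/ERK pathway and by Oct4 (Pou5f1), and Klf5 is also needed in the blastocyst, where it takes part in forming the trophectoderm and the inner cell mass.

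The coding sequence of the last zinc finger is shown because it is where the relation between the 3 genes is easiest to see, and because near-identical stretches would let reads of 1 gene be counted for another. Letters are 5′ to 3′ on the coding strand, from the GENCODE M21 transcripts (GRCm38, the same assembly as mm10), and a capital marks a base that differs from both other genes at that position.
Klf2, chr8:72320851-72320913, plus strand: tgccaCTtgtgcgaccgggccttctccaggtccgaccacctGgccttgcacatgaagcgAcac
Klf4, chr4:55528131-55528193, minus strand: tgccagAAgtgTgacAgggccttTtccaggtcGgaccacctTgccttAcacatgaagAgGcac
Klf5, chr14:99313258-99313320, plus strand: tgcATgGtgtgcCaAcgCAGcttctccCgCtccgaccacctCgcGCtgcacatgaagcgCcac
Klf5 holds 14 such bases of 63, Klf4 10 and Klf2 4. Over the whole region of the 3 fingers (243 bases), Klf2 and Klf4 were identical at 78.2% of positions, Klf2 and Klf5 at 70.4%, and Klf4 and Klf5 at 68.3%. The longest identical run in that region was 14 bases for Klf2 and Klf4, 13 for Klf2 and Klf5, and 9 for Klf4 and Klf5. Among all stretches of 31 bases in the annotated transcripts of each gene, 0 were shared between any 2 of the 3. Other genes held 0 of 1817 such stretches of Klf2, 61 of 3047 of Klf4 (2.00%) and 99 of 5170 of Klf5 (1.91%), and reads from those stretches could have been split between genes.

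Klf2 (ENSMUSG00000055148) lies on chromosome 8 at 72319033 to 72321656 on the plus strand, with 1 annotated transcript and 1847 exonic bases. Klf4 (ENSMUSG00000003032) lies on chromosome 4 at 55527143 to 55532466 on the minus strand, with 3 transcripts that together cover 3049 exonic bases. Klf5 (ENSMUSG00000005148) lies on chromosome 14 at 99298691 to 99315036 on the plus strand, with 2 transcripts that together cover 5201 exonic bases, against 3352 in the longer of them. The deposited values are per gene, so that endogenous Klf5 and the overexpressed copy, and the transcripts of each gene, cannot be told apart.

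Library totals ran from 26775363 to 37482631 estimated counts in ESCs and from 14701519 to 24939629 in embryos. On raw library totals, a count of 3 corresponded to 0.0800 to 0.112 CPM (the usual unit of counts scaled to the library total) in ESCs and to 0.120 to 0.204 CPM in embryos. The gene levels given here use totals adjusted by TMM scaling, on which these limits differ. The lowest count of any of the 3 genes in a library was 129, well above 3. Such limits cover counting error only. Klf5 siRNA embryo 1 held Klf5 at the level of the controls, against its label, and each fold change of the 3 genes in embryos is given with and without it. Scramble embryos 5 and 6 stood apart from the other controls, with 4.34% and 5.48% of their counts from mitochondrial genes against 8.04% to 18.5% in the other 8. The fold changes of Klf2 and Klf4 in embryos, and the correlations among the 3 genes in scramble embryos, are given without them too. Every scramble library has a lower library number in the labels than every Klf5 siRNA library, so library order and siRNA cannot be told apart. ESC and embryo libraries were made with different kits, and values of both are set side by side without a test.

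Klf5 was raised strongly in the ESCs that overexpress it, and neither Klf2 nor Klf4 passed the test beside it. Klf5 stood at 80.5 and 70.8 CPM in the GFP libraries and at 942 and 882 CPM in the Klf5 libraries. It was therefore 12.1-fold higher (75.6 ± 6.83 against 912 ± 42.7 CPM, SD, n = 2 each, log2 fold change 3.59 ± 0.14 SE, adjusted p = 0.000323 by edgeR's quasi-likelihood test), as the labels have it. This test called 2.78% of 15968 genes, 1.67% as higher and 1.11% as lower, and of the 3 genes only Klf5 was among them. Klf5 had the smallest p of all genes tested.

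Klf4, which encodes a factor long used in reprogramming cells to pluripotency, was found at 517 and 603 CPM in the GFP libraries and at 857 and 620 CPM in the Klf5 libraries. Both Klf5 libraries were above both GFP libraries, but by very unequal amounts. The share of all genes whose ESC groups separate in this way was not computed. The log2 fold change was 0.40 ± 0.18 (SE; 560 ± 60.4 against 739 ± 167 CPM, SD, n = 2 each, adjusted p = 0.233, edgeR). The difference between the Klf5 libraries themselves was larger than that between the lower of them and the nearer GFP library. Without Klf5 library 1 the log2 fold change was 0.15.

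Klf2, first described as a lung Krüppel-like factor and also a flow-responsive factor of endothelium, stood at 375 and 450 CPM in the GFP libraries and at 355 and 388 CPM in the Klf5 libraries. The groups overlapped. The log2 fold change was -0.15 ± 0.13 (SE; 412 ± 53.0 against 372 ± 23.2 CPM, SD, n = 2 each, adjusted p = 0.539, edgeR). Thus in ESCs Klf2 had a sign opposite to that of Klf5 and Klf4 had the same sign, each within the spread that 2 libraries a group allow.

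Fibroblast feeders also express members of this family, so feeder markers were read beside these values. Their summed level (Col1a1, Col1a2, Col3a1, Thy1, Postn, Fbn1, Twist1 and Lum) was 644 and 811 CPM in the GFP libraries. In the Klf5 libraries it was 1140 and 1144 CPM. Of the 7 that could be tested, 1 rose, Col1a2, against 1.67% of all genes called higher. A log2 fold change above 0 was found for 6 of the 7. Summed primitive endoderm markers (Gata6, Gata4, Sox17, Sox7, Pdgfra, Dab2 and Foxa2) were at 39.9 and 45.2 CPM with GFP. With Klf5 they were at 104 and 240 CPM. Of these 7 markers, 2 rose, Sox7 and Dab2, against 1.67% of all genes called higher. All 7 had a log2 fold change above 0 (median 2.25) and an unadjusted p under 0.05 (edgeR). Summed trophectoderm markers were at 811 and 1746 CPM with GFP and at 253 and 609 CPM with Klf5. Of these 8 markers, 0 were called and 3 had a log2 fold change above 0. Krt8 and Krt18 made the largest parts of the sum, with means of 600 and 541 CPM with GFP. Epiblast and pluripotency markers (Nanog, Sox2, Fgf4, Tdgf1, Pou5f1 and Utf1) summed to 4302 and 4344 CPM with GFP and to 5134 and 5139 CPM with Klf5, with all 6 detected in each library. Of these 6, 0 were called and 4 had a log2 fold change above 0. The part of other cell types in the level of Klf4 was not tested.

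**Figure D1:**
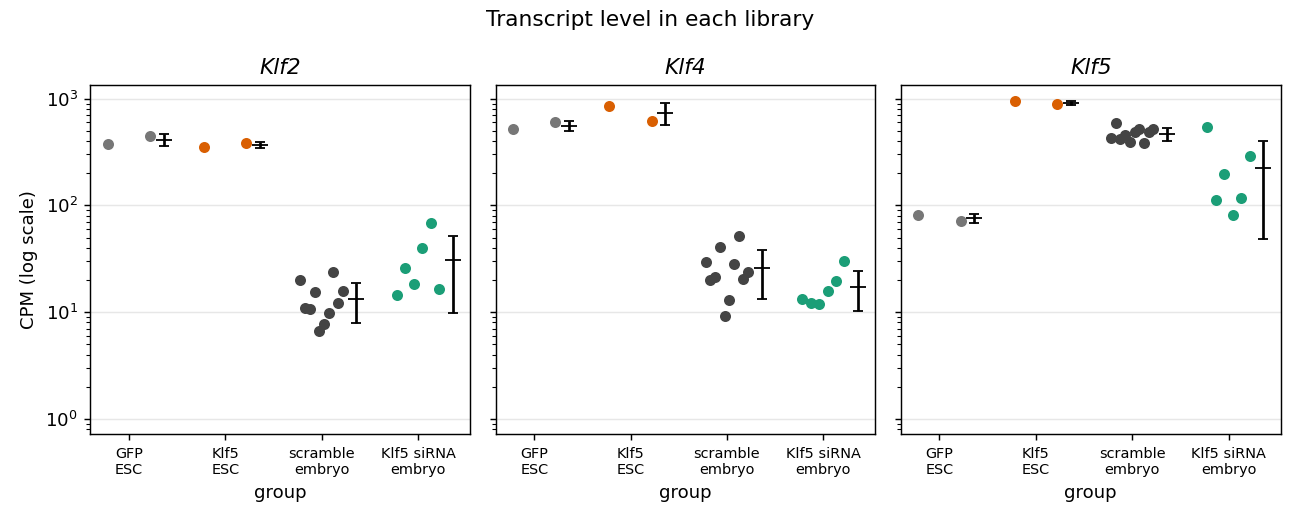
Level of Klf2, Klf4 and Klf5 in every library, in CPM on a log scale, by group, with each library as a point and the group mean and SD as a bar. Klf5 stands highest in the Klf5 ESCs, at 942 and 882 CPM, and 5 of the 6 Klf5 siRNA embryos lie below all 10 scramble embryos for Klf5 while Klf2 is above the scramble mean in all 6.

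In embryos injected with the Klf5 siRNA, Klf5 was lower, Klf2 was higher and Klf4 did not pass the test. The test called 19.8% of 12385 genes in this comparison, 12.0% as higher and 7.74% as lower, and 2 of the 3 genes were among them, so that a call by itself is common here. Where siRNA embryos are counted above or below the controls, the share of all genes that do so was not computed. Whole embryos were sequenced, so fewer cells of a type and less RNA per cell cannot be told apart.

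Klf5 ranged from 382 to 592 CPM over the 10 scramble embryos, with a median of 472 CPM. In the Klf5 siRNA embryos 1 to 6 it was 543, 111, 195, 80.8, 117 and 292 CPM. Embryos 2 to 6 were below every control, and embryo 1 was above the control mean. Klf5 fell 2.10-fold (469 ± 65.7, SD, n = 10, against 223 ± 174 CPM, SD, n = 6, log2 fold change -1.07 ± 0.33 SE, adjusted p = 0.0273, edgeR), and without embryo 1 the log2 fold change was -1.56. The call was lost without embryo 2, 3, 4 or 5, each of them low in Klf5 (-1.06 to -0.91, adjusted p = 0.0509 to 0.0672, edgeR).

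Klf2 was measured at 6.64 CPM in the lowest, 11.5 in the median and 23.8 in the highest of the scramble embryos. In Klf5 siRNA embryos 1 to 6 the level was 14.4, 26.1, 18.2, 39.7, 68.6 and 16.6 CPM. All 6 were above the control mean and 3 of them, embryos 2, 4 and 5, were above every control. Klf2 rose 2.30-fold (13.3 ± 5.49, SD, n = 10, against 30.6 ± 20.8 CPM, SD, n = 6, log2 fold change 1.20 ± 0.35 SE, adjusted p = 0.0215, edgeR). The 3 embryos with the most Klf2 were also the 3 with the least Klf5.

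The call of Klf2 was not firm. It was lost without siRNA embryo 5 (log2 fold change 0.77, adjusted p = 0.116) and with an offset that takes out how counts depend on gene length in each library (0.83, adjusted p = 0.156), while without siRNA embryo 1 it was kept (1.32, adjusted p = 0.0135, all edgeR). Gene length moved with the comparison as a whole, and the 1231 genes of Klf2's length (1469 to 2182 exonic bases) had a median log2 fold change of 0.51, with 22.3% called higher and 3.09% called lower. Ribosomal protein genes made up 6.92 ± 1.65% of counts in scramble embryos (SD, n = 10) and 10.8 ± 2.30% in Klf5 siRNA embryos (SD, n = 6), and with that share as a covariate the log2 fold change of Klf2 was 0.49 (adjusted p = 0.502, edgeR). Without scramble embryos 5 and 6, the controls lowest in Klf2, it was 0.98 (adjusted p = 0.0538, edgeR).

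Klf4 was measured at 9.14, 22.7 and 51.2 CPM in the lowest, the median and the highest scramble embryo. Klf5 siRNA embryos 1 to 6 had levels of 13.2, 12.2, 12.0, 15.7, 19.7 and 30.0 CPM. All 6 lay within the range of the controls, and 1 of them, embryo 6, was above the control mean. The log2 fold change was -0.59 ± 0.34 (SE; 25.8 ± 12.6, SD, n = 10, against 17.1 ± 6.93 CPM, SD, n = 6, adjusted p = 0.240, edgeR). Without scramble embryos 5 and 6, the controls lowest in Klf4, it was -0.85 and passed the threshold (adjusted p = 0.0498, edgeR), and without siRNA embryo 1 it was -0.54. Mitochondrial genes made up 12.1 ± 4.84% of counts in scramble embryos (SD, n = 10) and 5.02 ± 2.78% in Klf5 siRNA embryos (SD, n = 6). With that share as a covariate the log2 fold change of Klf4 was -0.08, and with that covariate and the length offset together its sign turned (0.18).

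Markers of the other cell types of the blastocyst moved with the groups. Summed trophectoderm markers (Cdx2, Elf5, Eomes, Gata3, Tfap2c, Krt8, Krt18 and Hand1) ranged from 2073 to 8291 CPM in scramble and from 171 to 2335 CPM in Klf5 siRNA embryos. Of the 7 tested, 6 fell, against 7.74% of all genes. Of 7 primitive endoderm markers, 2 fell, Sox17 and Pdgfra, and their sum ranged from 327 to 595 against 179 to 483 CPM. Summed epiblast markers overlapped, at 92.2 to 375 against 136 to 335 CPM, and 1 of 6, Fgf4, fell. These markers did not move together. Log2 values were above 0 for 2 of the 6, Pou5f1 (1.12, adjusted p = 0.0819, edgeR) and Nanog (0.89, adjusted p = 0.0697, edgeR), neither of them called. Feeder markers summed to at most 22.3 CPM in any embryo. Only 1 of them, Thy1, could be tested, and it rose, against 12.0% of all genes. Its level was 0.311 ± 0.476 CPM in scramble embryos (SD, n = 10) and 6.11 ± 8.11 CPM in Klf5 siRNA embryos (SD, n = 6). The log2 fold change was 4.25 (adjusted p = 0.00621, edgeR), and the highest siRNA embryo was at 21.9 CPM. The part of cell composition in the levels of the 3 genes was not tested.

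Expressed per kilobase of exon, so that genes can be compared within a library, the group means of the 3 genes stood in a different order in each group, although Klf2 and Klf4 overlapped in Klf5 ESCs, in scramble embryos and in Klf5 siRNA embryos, and Klf2 and Klf5 overlapped in Klf5 siRNA embryos. GFP ESCs carried mostly Klf2 and Klf4, which made up 52.9 ± 0.884% and 43.6 ± 0.182% of the summed level per kilobase of the 3, with 3.49 ± 0.702% from Klf5 (SD, n = 2). In Klf5 ESCs the shares were 32.7 ± 4.70% for Klf2, 38.9 ± 5.68% for Klf4 and 28.4 ± 0.986% for Klf5 (SD, n = 2). Klf5 thus stood near the level of the other 2 in these cells and not beyond it, on this scale. With the longest transcript in place of all exons the mean Klf5 share was 38.0%, above both others. In Klf5 library 1 by itself Klf4 was slightly higher than Klf5 (37.4% against 37.2%). The order of the means in Klf5 ESCs thus depends on the length used.

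Scramble embryos carried mostly Klf5. Its share was 85.2 ± 6.46% (SD, n = 10, from 71.2 to 91.9%), with 6.83 ± 2.82% for Klf2 and 7.96 ± 3.90% for Klf4. In Klf5 siRNA embryos the shares were 60.4 ± 22.4% for Klf5, 30.2 ± 20.7% for Klf2 and 9.43 ± 3.39% for Klf4 (SD, n = 6). From embryo to embryo the Klf5 share was 89.6, 54.1, 73.1, 36.8, 34.0 and 74.9% and the Klf2 share 6.70, 35.8, 19.2, 51.0, 56.2 and 12.0%. Klf2 exceeded Klf5 per kilobase in embryos 4 and 5 and in no scramble embryo. With the longest transcript as length it did so in embryo 5 (47.3% against 44.4%) and not in embryo 4 (42.4% against 47.4%). These shares hold Klf5 itself and are a description with no test.

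**Figure D2:**
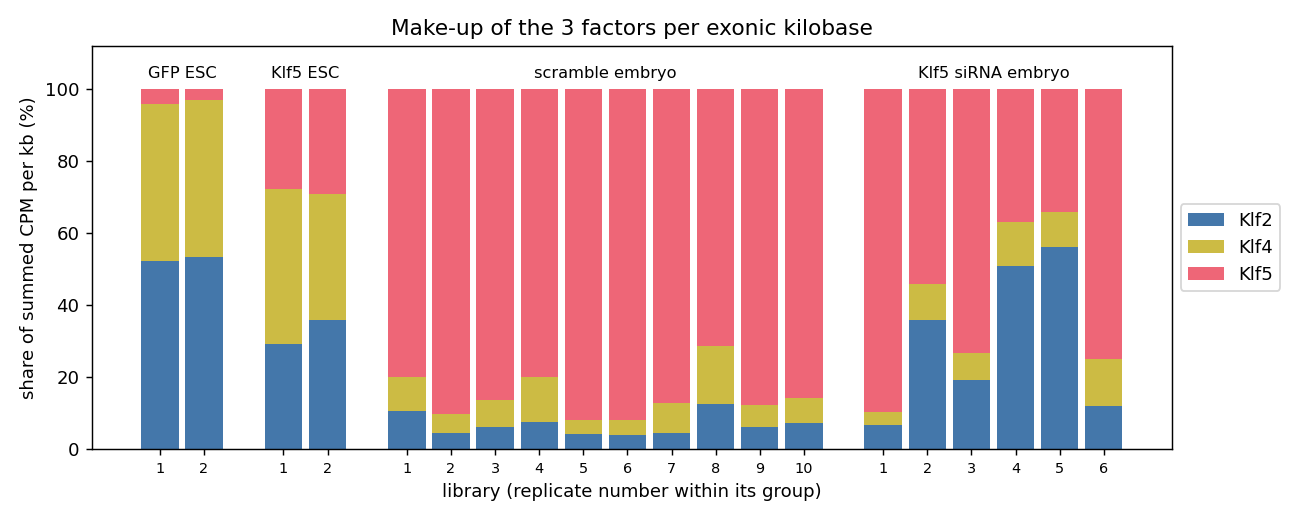
Share of Klf2, Klf4 and Klf5 in the summed level per kilobase of exon of the 3 genes, in percent, as a stacked bar for each of the 20 libraries. Klf5 makes up 3.49% on average in GFP ESCs, 28.4% in Klf5 ESCs, 85.2% in scramble embryos and 60.4% in Klf5 siRNA embryos, where it ranges from 34.0 to 89.6%.

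The summed level per kilobase of the 3 genes was 421 ± 47.2 CPM per kilobase in GFP ESCs and 619 ± 50.4 in Klf5 ESCs (SD, n = 2 each). It was 106 ± 12.3 in scramble embryos (SD, n = 10) and 65.1 ± 28.7 in Klf5 siRNA embryos (SD, n = 6), where 5 of 6 embryos were below every control. Embryos 2 to 6, in which Klf5 was low, were those 5. Klf5 is itself part of this sum and made up 85.2% of it on average in scramble embryos. A low sum in embryos low in Klf5 thus follows largely from Klf5 itself. The rise in Klf5 ESCs also contains the overexpressed gene. The sum is a description with no test.

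The ratio of Klf4 to Klf2 per kilobase leaves Klf5 out and does not depend on library scaling. It was 0.837 and 0.812 in the GFP libraries and 1.46 and 0.968 in the Klf5 libraries of the ESCs. Over the scramble embryos it was 1.17 ± 0.311 (SD, n = 10) and over the Klf5 siRNA embryos 0.457 ± 0.339 (SD, n = 6). In 5 of 6 siRNA embryos it was below every control, embryo 1 with its control level of Klf5 included, and only embryo 6 was within the control range. The ratio was thus higher where Klf5 had been overexpressed and lower where it had been targeted, in 2 of 2 and 5 of 6 libraries respectively. The share of other gene pairs that separate in this way was not computed. In embryos the median log2 fold change was 0.51 for genes of Klf2's length and -0.0028 for genes of Klf4's length. The part of gene length in the ratio was not tested.

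Ranked by level per kilobase among all genes with a count in a library, Klf2 stood at 212 and 271 and Klf4 at 255 and 322 in the GFP ESCs, and Klf5 at 3259 and 3541. In the Klf5 ESCs, Klf5 stood at 254 and 300. In scramble embryos Klf5 ranked between 487 and 803, Klf2 between 2581 and 5269, and Klf4 between 2176 and 5647. Klf2 and Klf4 thus ranked high in control ESCs and Klf5 in control blastocysts, in libraries that also differ in how they were made.

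Across all 4 groups the mean level of Klf2 was lowest in scramble embryos and next in Klf5 siRNA embryos, which overlapped with them. It was far higher in Klf5 and GFP ESCs, which also overlapped. Klf4 was lowest in Klf5 siRNA and scramble embryos, which overlapped, and higher in GFP and then Klf5 ESCs. GFP and Klf5 ESCs did not overlap for Klf4, which did not pass the test. The share of all genes that separate so was not computed. Mean Klf5 was lowest in GFP ESCs, whose higher library (80.5 CPM) lay next to siRNA embryo 4 (80.8 CPM). Klf5 siRNA embryos, scramble embryos and Klf5 ESCs followed in that order. The embryo groups overlapped for Klf5, with siRNA embryo 1 at 543 CPM.

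Control embryos differed little from each other in Klf5. The SD of log2 CPM over the 10 scramble embryos was 0.20 for Klf5, and 0.283% of the genes tested had a lower SD. For Klf2 it was 0.58, with 32.8% of genes lower, and for Klf4 it was 0.73, with 48.7% lower. Genes with high counts have lower counting error, and Klf5 was the most abundant of the 3. In Klf5 siRNA embryos the SDs were 1.02 for Klf5, 0.86 for Klf2 and 0.51 for Klf4.

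Whether the 3 genes vary together was read within each embryo group, since the groups differ in level. Over the 10 scramble embryos Klf2 and Klf4 were high and low in the same embryos (Pearson r = 0.87, permutation p = 0.00100, 0.00600 after adjustment over 6 relations, two-sided; Spearman rho = 0.79, adjusted permutation p = 0.0529). Embryo 8 was highest in both genes and embryos 5 and 6 were lowest in both. Without the 2 embryos farthest from the median r was 0.84 (adjusted permutation p = 0.0664), and without embryos 5 and 6, which also had the largest library totals and the smallest mitochondrial shares, it was 0.72 (adjusted permutation p = 0.173). Without either pair of embryos the relation kept its direction and no longer passed after adjustment.

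No relation of Klf5 passed in the controls, with r = -0.21 to Klf2 (rho = -0.14, permutation p = 0.560) and r = -0.11 to Klf4 (rho = -0.25, permutation p = 0.746). Both signs turned without the 2 embryos farthest from the median of Klf5 (0.18 and 0.34). Without embryos 5 and 6 both were further below 0, at r = -0.64 for Klf2 and r = -0.66 for Klf4, and neither passed (adjusted permutation p = 0.173 for each).

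In the 6 Klf5 siRNA embryos, those with less Klf5 had more Klf2 (r = -0.78, exact permutation p = 0.0417; rho = -0.83, exact permutation p = 0.0583). Neither passed after adjustment over the 6 relations (0.125 and 0.175, exact permutation). Without the 2 embryos farthest from the median r was -0.58, and without embryo 1 it was -0.73. Klf4 had r = 0.10 with Klf5 and r = 0.12 with Klf2 in these embryos, neither of which passed. Without embryo 1 these were 0.51 and -0.02, and without the 2 embryos farthest from the median -0.45 and -0.33. The difference in r between the 2 embryo groups was not tested.

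**Figure D3:**
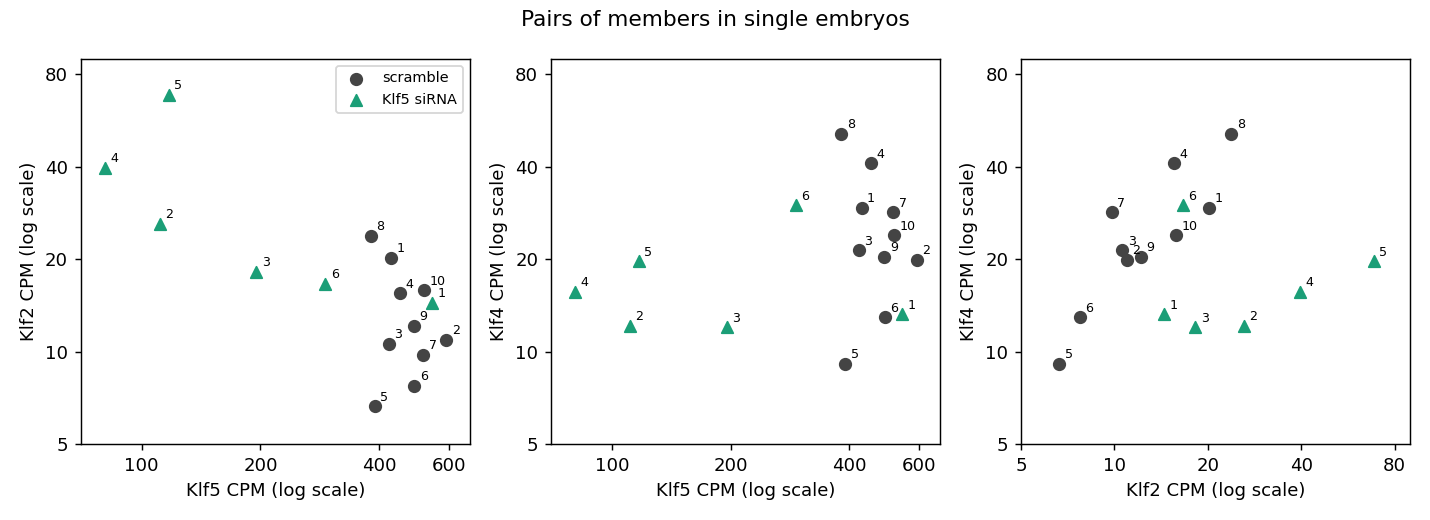
Klf2 against Klf5, Klf4 against Klf5, and Klf4 against Klf2 in single embryos, both axes in CPM on log scales, with scramble embryos as circles and Klf5 siRNA embryos as triangles, each with its replicate number. Klf2 and Klf4 lie along a line over the scramble embryos (r = 0.87), and Klf2 is highest in the siRNA embryos 4 and 5 with little Klf5.

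Genes with the pattern most like each factor were sought over the 10 scramble embryos among 6382 genes with a mean of at least 10 CPM. Klf2 was closest to Slc35g1 (a solute carrier, r = 0.96), Pml (the scaffold of PML nuclear bodies, r = 0.94) and Cisd3 (a mitochondrial iron-sulfur protein, r = 0.91), and most opposed to Eipr1 (-0.97), Lonp2 (a peroxisomal protease, -0.93) and Gskip (-0.92). Of these 6 genes, 1 kept its sign of r with Klf2 in the siRNA embryos. Klf4 was closest to Cdv3, Clasp2 (a microtubule plus-end protein) and Ppp4r1 (a phosphatase subunit), each at 0.94, and most opposed to Nup93 (a nuclear pore protein, -0.97), Cog4 (a Golgi tethering subunit, -0.96) and Shisa5 (-0.96), and 0 of 6 kept the sign.

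Klf5 was closest to Fbln1 (fibulin, an extracellular matrix protein, r = 0.89), Abhd11os (a non-coding gene opposite Abhd11, whose reads may not be told apart from those of its partner, 0.86) and Ptprk (a receptor phosphatase, 0.85). It was most opposed to Tm9sf3 (-0.89), Gnai3 (a G protein subunit, -0.87) and Cds2 (a lipid enzyme, -0.86). Here 5 of 6 kept the sign in the siRNA embryos, with Fbln1 at 0.82, Gnai3 at -0.76 and Tm9sf3 at -0.65, and Cds2 turning to 0.70. The embryos share library depth and the shares given before, so these values are descriptions over 10 and 6 embryos.

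The genes that act on or beside the 3 factors were read from lists of the LIF pathway, the naive network, ubiquitin ligases known for Krüppel-like factors, and the rest of the family. In the LIF pathway, which runs from the receptor subunits Lifr and Il6st through the kinase Jak1 to Stat3 and its targets, 0 of 8 genes were called in ESCs (median log2 fold change 0.04, against -0.0025 over all genes), 2 had an unadjusted p under 0.05, and DESeq2 called 1. Socs3, a Stat3 target that feeds back on the pathway, was at 310 ± 54.7 CPM with GFP and 485 ± 116 CPM with Klf5 (SD, n = 2 each, log2 fold change 0.65, adjusted p = 0.125, edgeR).

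In embryos 3 of the 7 LIF pathway genes tested fell, against 7.74% of all genes, with a median log2 fold change of -1.05 against -0.0065 over all genes. Lifr fell 11.5-fold, from 38.4 ± 23.2 to 3.32 ± 3.52 CPM (SD, n = 10 and 6, adjusted p = 0.00501, edgeR). Jak1 fell 2.47-fold, from 90.8 ± 41.1 to 36.8 ± 14.8 CPM, and Stat3 fell 2.07-fold, from 62.7 ± 8.53 to 30.3 ± 9.15 CPM. Each of the 3 was below the control mean in 6 of 6 siRNA embryos, embryo 1 included, and Stat3 was below every control in all 6. The share of all genes below every control in all 6 was not computed. Stat3 was called under all 32 alternatives, Lifr under 29 and Jak1 under 28, and with the mitochondrial share as a covariate Stat3 alone of the 3 was called. Klf4, the family member downstream of Stat3, had a lower mean and was not called.

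In the naive network 3 of 14 genes rose and 1 fell in ESCs, against 1.67% and 1.11% of all genes, with a median log2 fold change of 0.76 against -0.0025 over all genes and 13 of 14 values above 0. Gbx2, a homeobox factor, rose 2.75-fold, from 4.85 and 6.31 to 13.4 and 17.5 CPM. Tbx3, a T-box factor downstream of LIF, rose 2.14-fold and Nr0b1, an orphan nuclear receptor, 1.86-fold. Dppa3, a maternal factor that protects DNA methylation and varies among ESCs, fell 4.02-fold (16.0 ± 1.08 against 3.99 ± 1.06 CPM, SD, n = 2 each, adjusted p = 0.0285, edgeR). All 4 calls ended without GFP library 1, when 1 gene was called in the whole comparison, and DESeq2 called 10 of the 14 as higher.

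In embryos 1 of the same 14 rose and 1 fell, no larger a share than the 12.0% and 7.74% of all genes, with a median log2 fold change of -0.27 against -0.0065 over all genes. Dppa3 rose 2.66-fold, from 4189 ± 1363 to 11159 ± 4043 CPM (SD, n = 10 and 6, adjusted p = 0.00145, edgeR), and was above the control mean in 6 of 6. With the length offset its log2 value was 0.71 in place of 1.41, and with that offset and the mitochondrial covariate together it was 0.64 and no longer called (adjusted p = 0.153, edgeR). Dppa3 was thus called opposite to Klf5 in both experiments, the sign that Klf2 had in both without a call in ESCs. Sall4, a zinc finger factor that works with Oct4, fell 2.11-fold, from 108 ± 47.0 to 51.3 ± 16.9 CPM (adjusted p = 0.0230, edgeR), against a log2 value of 0.53 in ESCs that did not pass (adjusted p = 0.0623, edgeR). Its fall was not called under 7 of 32 alternatives.

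**Figure D4:**
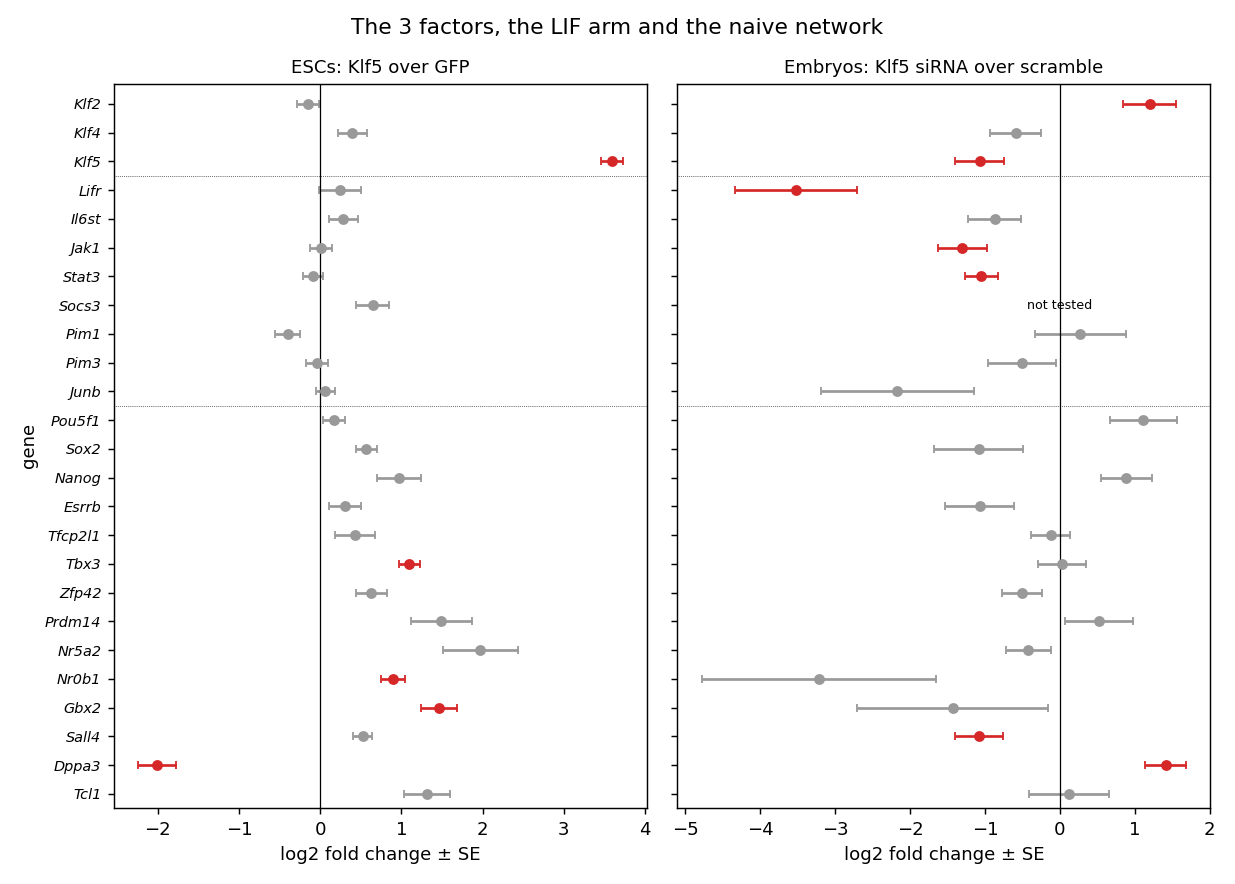
Log2 fold change with its standard error for the 3 factors, the LIF pathway genes and the naive network genes in ESCs (left) and embryos (right), red where the adjusted p passed 0.05 and grey where it did not. Klf5 lies at 3.59 in ESCs and at -1.07 in embryos, Lifr, Jak1 and Stat3 lie below 0 in embryos, and Dppa3 changes side between the panels.

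Of the 5 ubiquitin ligases, enzymes that mark Krüppel-like proteins for degradation, 0 were called in ESCs, against 2.78% of all genes, and 1 fell in embryos, against 7.74%. At an unadjusted p under 0.05 the counts were 0 and 3, and by DESeq2 0 and 2. In ESCs the smallest p was that of Fbxw7, a substrate receptor for Klf2 and Klf5 (log2 value 0.14, adjusted p = 0.660, edgeR). Smurf1, known for acting on Klf2, fell 2.78-fold, from 14.7 ± 4.99 to 5.28 ± 4.75 CPM (SD, n = 10 and 6, adjusted p = 0.0399, edgeR), and was not called under 15 of 32 alternatives. Protein levels were not measured, and transcript values do not bear on them.

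Of the 14 other family members, 2 rose in ESCs, against 1.67% of all genes, and 2 of 11 tested fell in embryos, against 7.74%. DESeq2 called 5 as higher and 1 as lower in ESCs, and 2 as lower in embryos. Klf3, a repressor of the family, rose 2.39-fold in ESCs, from 4.80 and 5.09 to 10.8 and 12.8 CPM, a call that, like that of Klf9, ended without GFP library 1 or 2. Klf9, a stress and hormone responsive member, rose 1.55-fold in ESCs (101 ± 0.768 against 157 ± 9.99 CPM, SD, n = 2 each, adjusted p = 0.0382, edgeR) and fell 1.64-fold in embryos (44.9 ± 11.4, SD, n = 10, against 27.5 ± 6.68 CPM, SD, n = 6, adjusted p = 0.0416, edgeR). Klf9 was thus called in the direction of Klf5 in both experiments, a direction that Klf4 shared without a call. Klf13 fell 1.97-fold in embryos, from 27.5 ± 8.85 to 14.0 ± 7.43 CPM (adjusted p = 0.0421, edgeR). The falls of Klf9 and Klf13 stood close to the threshold and were not called under 19 and 17 of 32 alternatives, among them the length offset and the mitochondrial share as a covariate.

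**Figure D5:**
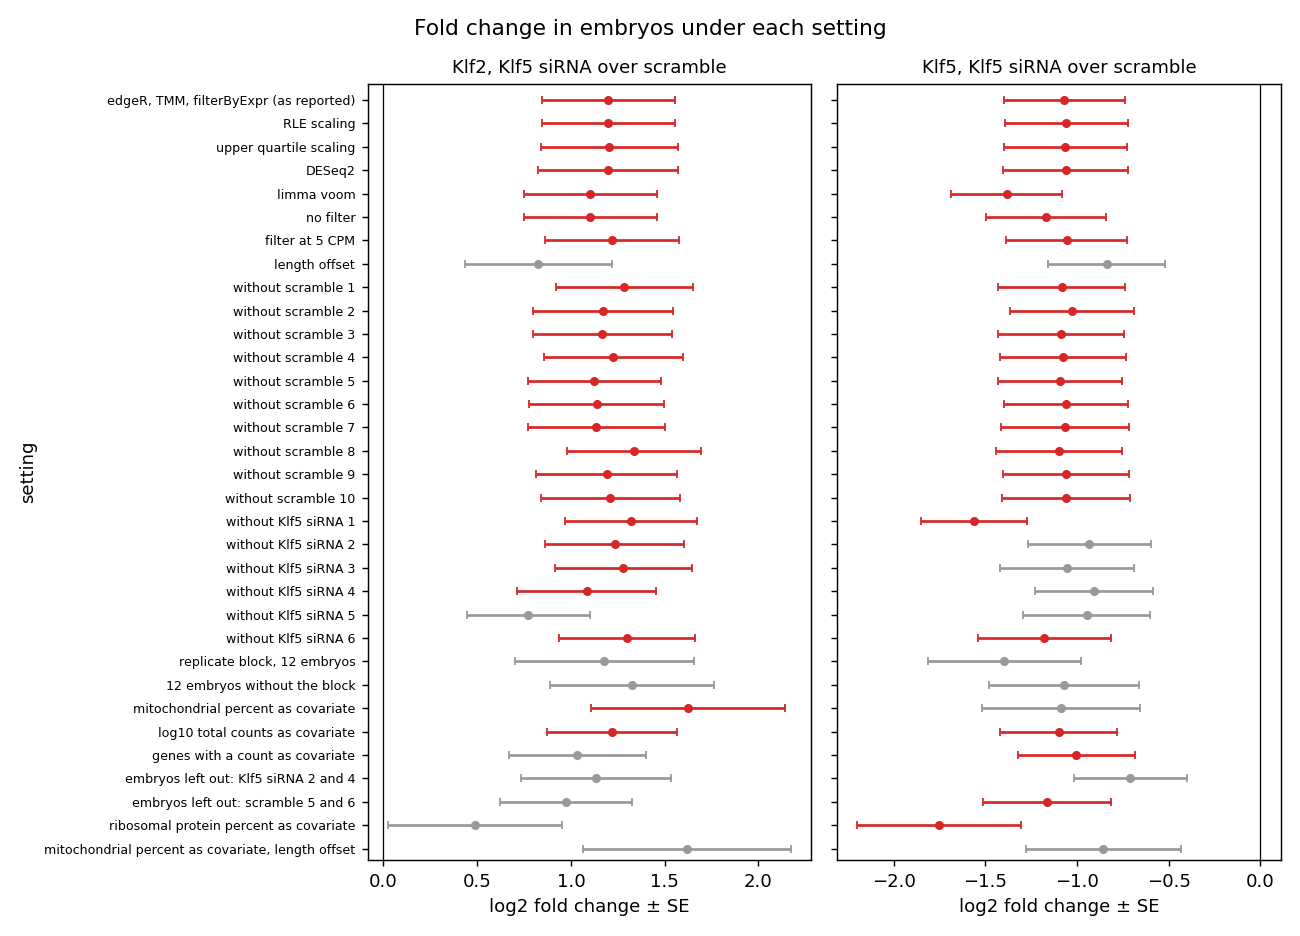
Log2 fold change with its standard error of Klf2 (left) and Klf5 (right) in embryos as reported and under 32 processing alternatives, red where the adjusted p passed 0.05 and grey where it did not. Klf2 stays above 0 (0.49 to 1.62) and Klf5 below 0 (-1.75 to -0.71), and the call is lost under 9 alternatives for Klf2 and 10 for Klf5.

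Side by side, Klf2 had the sign opposite to Klf5 in both experiments (-0.15 with Klf5 raised, 1.20 with Klf5 lowered, log2) and was called only in embryos. Klf4 had the sign of Klf5 in both (0.40 and -0.59) and was called in neither. In ESCs the groups overlapped for Klf2, whose log2 value was -0.012 without GFP library 2. In embryos the call of Klf2 was lost under 9 of 32 alternatives, and genes of its length had a median of 0.51. The sign of Klf4 in embryos turned under 1 of the 32. The difference between the experiments was not tested, since their libraries were made differently.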

How the data were processed

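PolyA RNA was sequenced from 4 mouse ESC libraries and 16 single-embryo libraries. The authors deposited unscaled estimated counts for Ensembl genes. The submitters' processing notes name kallisto 0.46 and the mm10 build. The sources used here do not give how transcripts were summed to genes. Per the labels' protocols, ESC cDNA was made with TruSeq v2 reagents and embryo cDNA with SMARTseq-V4. Of the 30265 genes in each table, 29831 were matched to GENCODE M21 (GRCm38), which also gave lengths, positions and transcripts.

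Counts were rounded, which moved no library total by more than 0.000756%, and each experiment was fitted by itself with edgeR 4.0.16 (filterByExpr with a lowest count of 10, TMM scaling, robust quasi-likelihood fits and F tests). P-values were adjusted by Benjamini-Hochberg over all genes tested, with a threshold of 0.05. CPM use the TMM-scaled totals, log2 CPM a prior count of 2. Correlations used 100000 permutations for 10 embryos and all permutations for 6. The fits were tested on simulated data. Groups and replicate numbers came from the labels' titles and genotypes, and no sample was left out.

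The genes named are the 3 factors, up to 4 called genes with the smallest p of each pathway list (or the gene with the smallest p where none was called), and the 3 genes with the highest and the 3 with the lowest r with each factor over the scramble embryos. Other genes are named as cell type markers, called or not, and Sall4 in ESCs beside its value in embryos. Members and lists were chosen with earlier results of these data known.

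Alternatives were RLE and upper quartile scaling, DESeq2 1.42.0, voom of limma 3.58.1, no filter, a filter at 5 CPM, the length offset (lowess span 0.3), leaving out libraries, replicate numbers as a block, and library measures as covariates. Chosen after seeing the data were the ribosomal covariate, the mitochondrial covariate with the length offset, the crossed pairing of ESCs, and leaving out scramble embryos 5 and 6 or siRNA embryo 1 in correlations. Replicates differed by more than counting noise (chi-square per degree of freedom at least 21.1 in ESCs and 71.3 in embryos), so none was treated as a library deposited again. This does not show that ESC replicates were separate cultures.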

Additional observations from a re-analysis of the deposited data

How the results depend on the processing

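Under 32 alternatives in embryos the signs of Klf2 and Klf5 did not turn, and in ESCs the 3 genes kept sign and side of the threshold under all 13. For Klf2 in embryos the call was lost with the length offset (log2 fold change 0.83), the number of genes with a count as a covariate (1.04), the ribosomal share as a covariate (0.49), the mitochondrial covariate with the length offset (1.62, adjusted p = 0.0548, edgeR), and without siRNA embryos 2 and 4 (1.13) or scramble embryos 5 and 6 (0.98). Leaving out 1 embryo gave 0.77 to 1.34, with the call lost without siRNA embryo 5. For Klf5 it was lost with the length offset (-0.84), the mitochondrial covariate alone (-1.09) or with that offset (-0.86), and without siRNA embryos 2 and 4 (-0.71). Leaving out 1 embryo gave -1.56 to -0.91, with the call lost without siRNA embryo 2, 3, 4 or 5. Klf4 passed without scramble embryos 5 and 6 (-0.85) and turned sign with the mitochondrial covariate and length offset together (0.18). The cause was not tested.

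The replicate block could be fitted to the 12 embryos whose numbers both groups share, and gave 1.18 for Klf2 and -1.40 for Klf5, neither called, with 902 genes called. The same 12 without the block gave 1.32 and -1.07, neither called, with 1423 genes against 2447 for all 16. Same-numbered embryos deviated with r of -0.13 to 0.11, and 0 of 6 correlated best with their own number, so the numbers were not used as pairs. In ESCs the replicate block called 155 genes and a crossed replicate block 1475, against 444. DESeq2 called 1435, voom 281 and the fit without a filter 870, and leaving out 1 library gave 1 (without GFP library 1) to 998, in fits that assume the lone library of a group to vary like the others.

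Without the 2 embryos farthest from the median, r in scramble embryos was 0.18 for Klf5 and Klf2, 0.34 for Klf5 and Klf4, and 0.84 for Klf2 and Klf4. Without embryos 5 and 6 it was -0.64, -0.66 and 0.72. In siRNA embryos it was -0.45 for Klf5 and Klf4 (-0.016 with CPM by total counts, 0.51 without embryo 1) and -0.33 for Klf2 and Klf4 (-0.019 without embryo 1). Fbxw7 in ESCs ran from -0.013 to 0.28 without 1 library. With the longest transcript as length, the shares in GFP ESCs were 51.8%, 42.9% and 5.30% for Klf2, Klf4 and Klf5. With 2 ESC libraries a group, 2 residual degrees of freedom limit what can be called there.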
